A study of Mus musculus with 6 samples.

Results

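Genes for receptors through which the liver senses hormones and growth factors were examined in liver RNA of mice fed a high-fat or a normal diet. They were taken as every probe set (a row of the array, made of several probes to 1 transcript) that the platform annotation pairs with exactly 1 of the symbols Ntrk2, Lepr, Prlr, Met, Fgfr4, Klb, Adipor1 and Adipor2. Of these 8 genes 7 were found, with 26 probe sets, among 18193 genes with such a probe set. Prlr, the prolactin receptor gene, was not analysed here. The set was chosen by function and partly by the measured diet difference of Ntrk2, which was higher under the high-fat diet, so the Ntrk2 values are given as a description with no test, and counts over the set support nothing.

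The high-fat group comprised male C57BL/6 mice, an inbred laboratory strain, given a diet with 60% of its calories as fat for 12 weeks from 8 weeks of age. The normal diet group comprised male mice of the same strain and starting age, kept on a normal diet over the same time, and no gene was altered in either group. Liver RNA of 6 mice per diet was pooled by 2, which is read here as 3 pools in each group with 1 array to a pool, on the Affymetrix Mouse Genome 430 2.0 design (n = 3 arrays per diet). Levels are log2 values normalized by the authors, and a difference is high-fat minus normal diet.

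Leptin and prolactin act through class I cytokine receptors, which have no kinase of their own and signal through JAK kinases and STAT factors. The receptors encoded by Ntrk2, Met and Fgfr4 are tyrosine kinases that, once bound by their ligand, recruit adaptors and switch on the ERK cascade. Beta-klotho, the Klb product, is the co-receptor that lets FGF receptors bind the endocrine factors FGF15 (FGF19 in humans) and FGF21. In liver, FGF15 from the gut acts through FGFR4 and beta-klotho to repress bile acid synthesis. MET, the receptor of hepatocyte growth factor, is known for its part in liver regeneration. The adiponectin receptors are membrane proteins of the PAQR family and are linked to AMP-activated kinase and PPARalpha.

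Pearson's r across probe sets was 0.994 to 0.995 between high-fat arrays and 0.982 to 0.991 between normal diet arrays. Normal diet 3 stood apart from the other normal diet arrays: it held the lowest value of the 6 arrays in 28.0% of the 14071 genes tested and the highest in 27.0%. Liver identity was seen in both diets, where the hepatocyte markers Alb and Ttr averaged 14.47 and 14.35 in high-fat arrays and 14.40 and 14.22 in normal diet arrays. Of 8 hepatocyte markers 0 were called higher and 1, Hnf4a, was called lower (-0.69). Alb and Ttr were among the 3 of these 8 with a positive difference. The summed level of the 8 (log2) was 16.5 to 16.525 in high-fat arrays and 16.533 to 16.604 in normal diet arrays. The genes of leptin and adiponectin themselves, which fat cells make, lay below the level filter on all 6 arrays. That filter kept a gene if its level passed the 40th percentile of an array on at least 3 of the 6 arrays. Among the genes tested, limma called 826 higher (5.87%) and 244 lower (1.73%) in the high-fat arrays at an adjusted p below 0.05, so 77.2% of the calls were higher. After a further quantile normalization that share was 66.4%.

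Ntrk2 encodes TrkB, the tyrosine kinase receptor of brain-derived neurotrophic factor (BDNF), best known from neurons. Its probe set with the highest mean, 1420838_at, read 7.81, 7.80 and 7.80 in the high-fat arrays, against 6.49, 6.66 and 6.46 in the normal diet arrays. The diets did not overlap, as they did not in 35.8% of all genes tested, and the high-fat arrays lay close together (SD 0.0044). The difference was 1.26 ± 0.10 (SE of limma's fit, n = 3 arrays per diet), or 2.40-fold. It ranged from 1.23 to 1.33 as each array was left out. The receptor set was chosen partly by this difference in the same arrays, so that range describes its size and does not test it.

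The Ntrk2 probe sets did not all behave alike. A second one, 1435196_at, read 6.03, 6.47 and 6.40 in the high-fat arrays, against 3.60, 4.14 and 3.63 in the normal diet arrays. It again separated the diets, as did 33.3% of all probe sets tested, by 2.51 ± 0.18. Its levels in normal diet 1 and 3 lay just over the filter of those arrays (3.54 and 3.59), which limits how its size can be read, and its level in normal diet 2 lay further above (filter 3.53). The third Ntrk2 probe set that passed the filter, 1437560_at, read 5.39, 5.13 and 4.85 in the high-fat arrays and 5.26, 5.30 and 5.39 in the normal diet arrays. There the diets overlapped, and the difference was -0.20. The other 5 Ntrk2 probe sets lay below the filter on all arrays, with differences between -0.13 and -0.01. The mean of all Ntrk2 probe sets therefore differed by 0.40. The annotation used here does not say which Ntrk2 transcripts, full-length or lacking the kinase, each probe set matches.

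**Figure D1:**
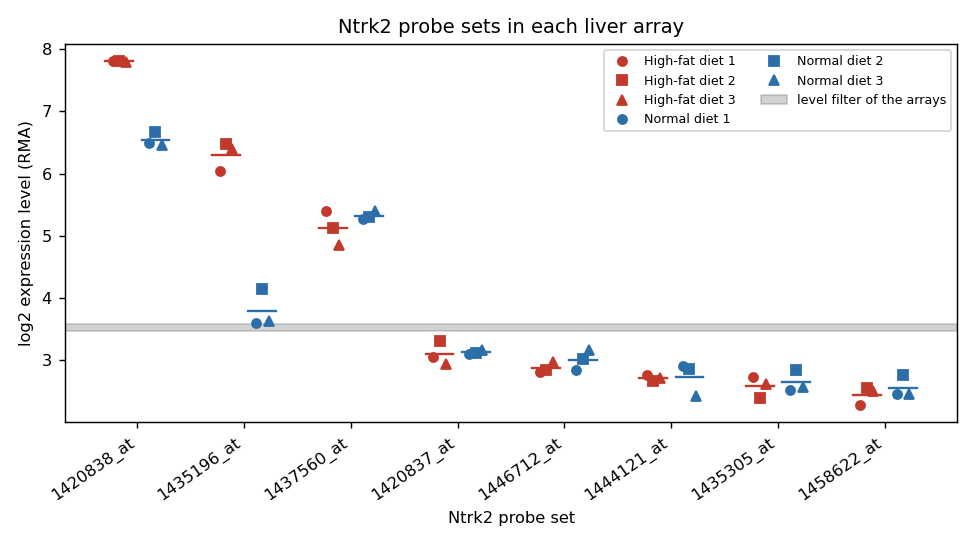
Log2 expression level (vertical axis) of each of the 8 Ntrk2 probe sets (horizontal axis) in the 3 high-fat arrays (red, left) and the 3 normal diet arrays (blue, right), with lines at the means and a grey band at the level filter of the arrays. Probe sets 1420838_at and 1435196_at separate the diets, 1437560_at does not, and the other 5 lie below the band.

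The liver holds several cell types. In these bulk samples a change in the number of cells of a type and a change in RNA per cell cannot be told apart. Some markers of other cell types were also called higher, where 5.87% of all genes tested were called higher and 1.73% lower. Of 8 Kupffer cell and macrophage markers 5 were called higher and 0 lower. The 3 not called were Clec4f (0.07), Marco (-0.06) and Timd4 (-0.15). The summed level of the 8 (log2) was 11.68 to 11.80 in high-fat arrays and 10.98 to 11.24 in normal diet arrays. Of 10 stellate cell and fibroblast markers 3 were called higher and 0 lower, with a summed level of 11.27 to 11.63 in high-fat arrays and 10.75 to 10.88 in normal diet arrays. Of 8 sinusoidal endothelial markers 1 was called higher and 0 lower, with a summed level of 10.24 to 10.39 in high-fat arrays and 10.01 to 10.13 in normal diet arrays. Of 8 Schwann cell and neuron markers 4 passed the level filter and 0 were called, and their summed level was 7.06 to 7.13 in high-fat arrays and 7.24 to 7.44 in normal diet arrays. Of 5 cholangiocyte markers on the array 0 were called, with a summed level of 6.78 to 6.88 in high-fat arrays and 6.93 to 7.06 in normal diet arrays. Of 4 tested exocrine pancreas markers 1, Cela1, was called lower (-0.81), and their summed level was 8.50 to 8.64 in high-fat arrays and 8.97 to 9.43 in normal diet arrays. Of 2 tested adipocyte markers 0 were called, with Fabp4 at 1.06 and Retn at -0.40 and a summed level of 8.43 to 8.68 in high-fat arrays and 6.58 to 8.50 in normal diet arrays. The part of these cells in the Ntrk2 difference was not tested.

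None of the other 6 receptor genes was called by limma in either direction, where 7.60% of all genes tested were called, and none of their 12 tested probe sets was, where 6.03% of all probe sets tested were called. Their adjusted p ran from 0.254 for Lepr to 0.998 for Met, and 0 of them had an unadjusted p below 0.05. No alternative processing that was run called any of them. The diets overlapped in all 12 of their probe sets that passed the filter, where the diets did not overlap in 33.3% of all probe sets tested. These 12 probe sets come from 6 genes, so they are not 12 separate observations. With 3 arrays per diet, these values bound a difference rather than show that there was none.

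**Figure D2:**
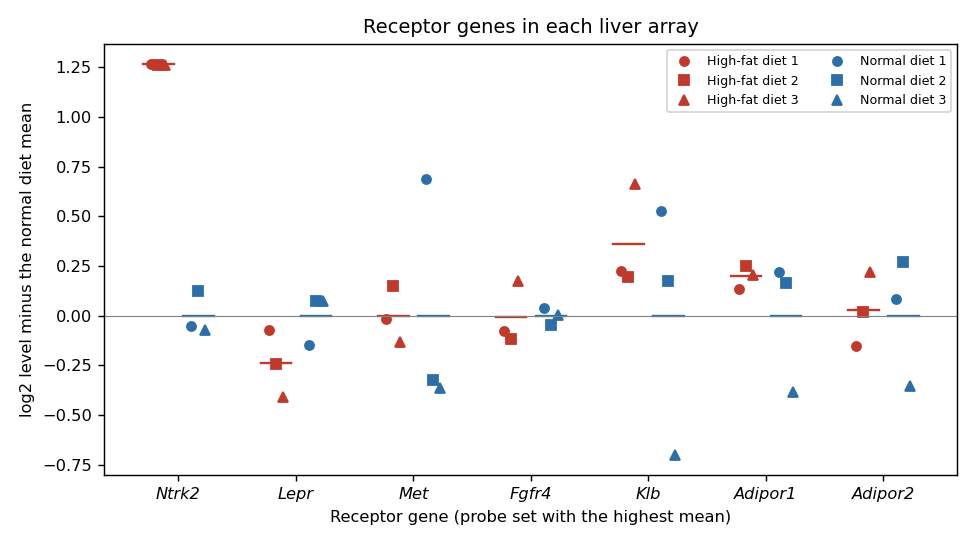
Log2 level of each receptor gene's probe set with the highest mean, minus its normal diet mean (vertical axis), in the 3 high-fat arrays (red, left) and the 3 normal diet arrays (blue, right), with lines at the means. Ntrk2 separates the diets, and normal diet 3 is the lowest array for Klb, Adipor1 and Adipor2.

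Lepr encodes the leptin receptor, whose long form signals through JAK2 and STAT3. The probe set 1425875_a_at read 4.87, 4.70 and 4.53 in the high-fat arrays, against 4.79, 5.01 and 5.01 in the normal diet arrays. High-fat 2 and 3 lay below every normal diet array and high-fat 1 did not. The difference was -0.24 ± 0.12 (limma adjusted p = 0.254), with a 95% interval of -0.53 to 0.05, which bounds the high-fat level at 0.692 to 1.04 times the normal diet level. Without high-fat 3 the difference was -0.16. The other 3 Lepr probe sets lay below the filter on all arrays.

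Met, with the probe set 1434447_at, read 7.28, 7.45 and 7.17 in the high-fat arrays, against 7.98, 6.97 and 6.93 in the normal diet arrays. Normal diet 1 was the highest of the 6 arrays and the other normal diet arrays were the lowest. The means were 7.30 in both diets, and the difference was 0.0008 ± 0.27 (limma adjusted p = 0.998) with an interval of -0.64 to 0.64. Its sign depended on the arrays used, at 0.34 without normal diet 1 and -0.16, -0.18 and -0.074 without normal diet 2, normal diet 3 or high-fat 2. It also turned negative after quantile normalization (-0.14), cyclic loess (-0.10) or averaging of the probe sets (-0.078). The second Met probe set lay below the filter on all arrays.

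Fgfr4 encodes the main FGF receptor of hepatocytes. The probe set 1418596_at read 6.75, 6.71 and 7.01 in the high-fat arrays, against 6.87, 6.78 and 6.83 in the normal diet arrays. The normal diet values fell inside the span of the high-fat values. Its difference of -0.01 ± 0.11 (limma adjusted p = 0.980) had the narrowest interval of the main probe sets of the 6 genes, -0.27 to 0.25, or 0.832 to 1.19 times the normal diet level. It turned positive after median centring (0.041) and without normal diet 1 (0.015), high-fat 1 (0.030) or high-fat 2 (0.050). The 3 other Fgfr4 probe sets above the filter differed by -0.09 to 0.11 and overlapped between the diets. A further one, 1427776_a_at, did not overlap, at 3.24 to 3.46 in high-fat arrays and 3.49 to 3.56 in normal diet arrays, but passed the filter on only 1 array and was not tested.

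Among the main probe sets of the 6 genes, that of Klb varied most between arrays. Its probe set 1449568_at read 6.79, 6.76 and 7.23 in the high-fat arrays, against 7.09, 6.74 and 5.86 in the normal diet arrays. Normal diet 3 was lower than every other array, and the remaining arrays of the diets overlapped. The difference was 0.36 ± 0.30 (limma adjusted p = 0.466) with an interval of -0.34 to 1.07, which reaches 2.10-fold. Without normal diet 3 it was 0.011, without normal diet 1 it was 0.62, without high-fat 3 it was 0.21, with array weights it was 0.17, and averaging its probe sets gave 0.19. The other Klb probe set lay below the filter on all arrays.

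Adipor1 and Adipor2 encode the paired adiponectin receptors. For Adipor1, the probe set 1439017_x_at read 9.05, 9.17 and 9.12 in the high-fat arrays, against 9.13, 9.08 and 8.53 in the normal diet arrays. Normal diet 3 was again the lowest array, here and in both other Adipor1 probe sets. The differences of the 3 probe sets were 0.20, 0.31 and 0.23, with limma adjusted p of 0.389 to 0.512 where probe sets were fitted one by one. The first, at 0.20 ± 0.17 (limma adjusted p = 0.473), had an interval of -0.19 to 0.59, and it was 0.0058 without normal diet 3. It was 0.063 after quantile normalization, 0.069 after cyclic loess and 0.10 with array weights, and 0.31 without normal diet 1.

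Adipor2, with the probe set 1434329_s_at, read 10.41, 10.58 and 10.78 in the high-fat arrays, against 10.64, 10.82 and 10.20 in the normal diet arrays. The lowest and the highest array were both of the normal diet. The difference was 0.03 ± 0.18 (limma adjusted p = 0.925) with an interval of -0.39 to 0.45, and its sign turned with quantile normalization (-0.054), cyclic loess (-0.10), array weights (-0.10) and without normal diet 3 (-0.15) or high-fat 3 (-0.065). Its second probe set, 1437864_at, read 6.85, 7.03 and 7.13 in the high-fat arrays, against 6.44, 7.66 and 6.66 in the normal diet arrays, a difference of 0.08 within the spread of the normal diet arrays (SD 0.65). The suffixes s and x mark probe sets that can match several transcripts.

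**Figure D3:**
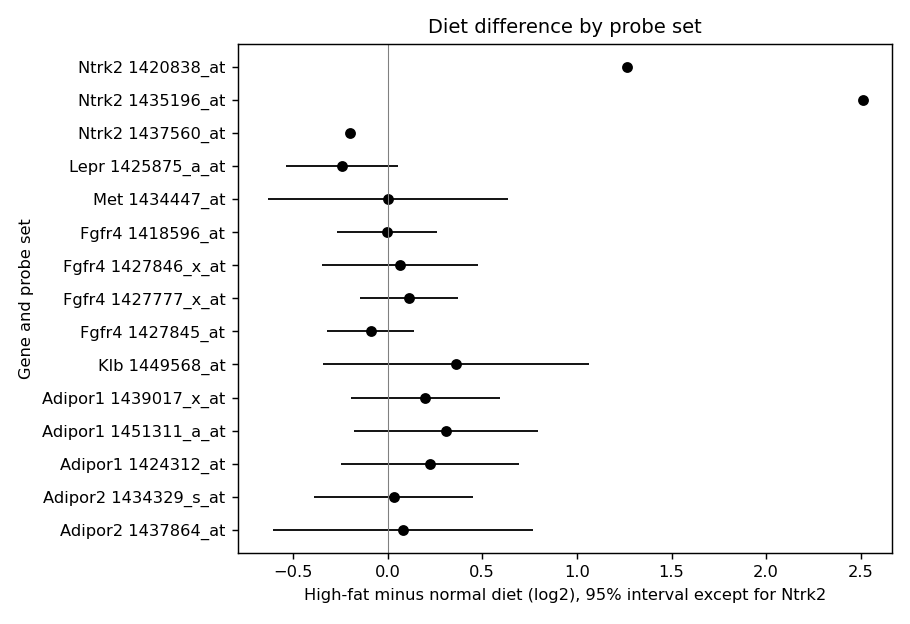
High-fat minus normal diet difference on the log2 scale (horizontal axis) of the 15 receptor probe sets that passed the level filter (vertical axis), with limma's 95% intervals for all but Ntrk2. The 12 probe sets of the other 6 genes have intervals that include 0 and differences between -0.24 and 0.36, whereas 2 of 3 Ntrk2 probe sets lie at 1.26 and 2.51.

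The spread within a diet differed between the receptors. In 5 of the 7 genes, Ntrk2, Met, Klb, Adipor1 and Adipor2, the SD was larger among normal diet arrays than among high-fat arrays, which held for 66.7% of all genes tested. Klb had an SD of 0.26 in high-fat arrays and 0.63 in normal diet arrays, and Met 0.14 and 0.59. The medians over all genes were 0.12 in high-fat arrays and 0.17 in normal diet arrays. Fgfr4 and Lepr ran the other way, with SDs of 0.16 and 0.17 in high-fat arrays and 0.044 and 0.13 in normal diet arrays. Normal diet 3 was the lowest of the 6 arrays for 5 of the 7 genes, which were Ntrk2, Met, Klb, Adipor1 and Adipor2. It was the lowest in 28.0% of all genes tested.

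**Figure D4:**
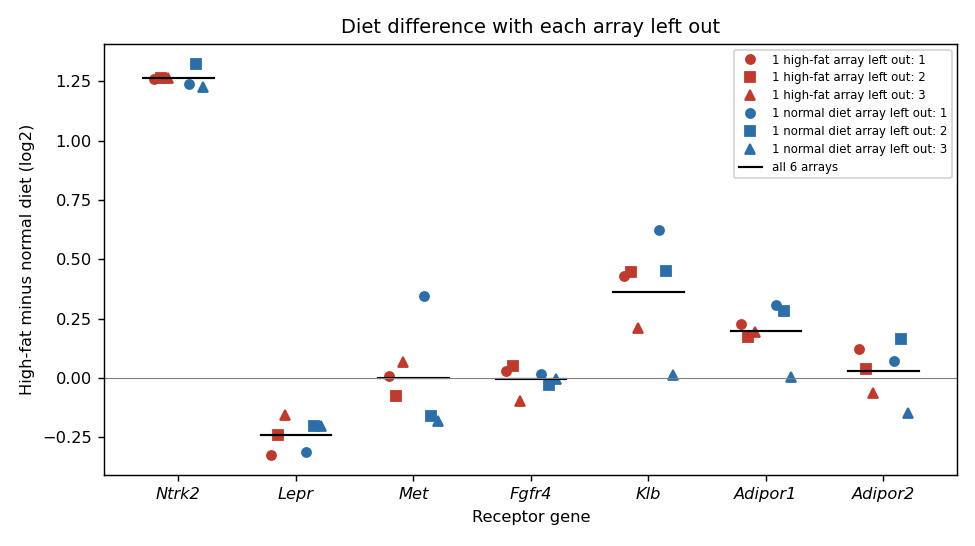
High-fat minus normal diet difference on the log2 scale (vertical axis) of each receptor gene with 1 high-fat array (red) or 1 normal diet array (blue) left out, with black lines at the value from all 6 arrays. Ntrk2 stays between 1.23 and 1.33, while Klb and Adipor1 fall to 0.011 and 0.0058 without normal diet 3 and Met rises to 0.34 without normal diet 1.

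Of the 7 genes, 3 ranged over at least 1 log2 unit across the arrays, and the genes with the most similar profile were sought for each by the root mean square difference of centred log2 values over the 6 arrays. Nearest to Ntrk2 were the small GTPase gene Rab34 (0.063), the adhesion receptor gene Adgre4 (0.068), Unc119 (0.082), the ubiquitin-conjugating enzyme gene Ube2c (0.10) and the basement membrane gene Nid1 (0.10). All of these were higher under the high-fat diet, by 1.19 to 1.42, which follows from their choice by likeness to Ntrk2. Nearest to Klb were the selenophosphate synthetase gene Sephs2 (0.076), Zfp385b (0.11), the lipoprotein receptor gene Vldlr (0.12), Kank1 (0.12) and Galnt4 (0.13), each also lowest in normal diet 3. Nearest to Met were Trp53inp2 (0.11), Emp2 (0.12), the topoisomerase gene Top2b (0.12), the calcium channel gene Itpr2 (0.12) and the transcription factor gene Sp3 (0.13), each highest in normal diet 1. Sharing the extreme array of Klb or Met likewise follows from the choice by likeness.

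Other genes of these pathways were gathered in 10 lists of ligands, related receptors and signalling parts. Of 144 listed genes 123 were tested, and limma called 10 higher and 9 lower in the high-fat arrays. These calls made up 15.4% of the listed genes tested, where over all genes tested 7.60% were called (5.87% higher and 1.73% lower). The lists were chosen with earlier results of these data known, so that share and the counts of each list are given as a description. Their median difference was 0.04, against 0.003 over all genes. Most of these calls needed all 3 high-fat arrays: of the 19, leaving out high-fat 1, 2 or 3 kept 6, 4 and 3, and leaving out normal diet 1, 2 or 3 kept 15, 14 and 18. The loss was not particular to the lists. Over all genes the calls went from 1070 to 272, 217 and 169 without high-fat 1, 2 or 3. Without normal diet 1, 2 or 3 they were 1065, 949 and 1245. Fgf21, Socs2 and Cish were called whichever array was left out.

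Among the ligands 2 of 7 tested genes rose and 0 fell (list median 0.06). Bdnf, which encodes the ligand of TrkB, read 4.56, 4.88 and 4.59 in the high-fat arrays, against 3.86, 3.82 and 2.96 in the normal diet arrays. The diets did not overlap, as in 35.8% of all genes tested, and the difference was 1.13 ± 0.24 (limma adjusted p = 0.0363). All 3 high-fat arrays but only 2 normal diet arrays lay above the filter for Bdnf, so the high-fat arrays alone were enough for it to be tested, and the size of its difference is uncertain. The Bdnf call ended as high-fat 1, 2 or 3 was dropped (adjusted p = 0.108, 0.134 and 0.118), and its second probe set differed by -0.08, near the filter. With the mean of the probe sets Bdnf differed by 0.52. Fgf21, the hormone gene whose product binds FGF receptors with beta-klotho, read 6.01, 5.62 and 5.60 in the high-fat arrays, against 4.61, 4.24 and 4.08 in the normal diet arrays (1.43 ± 0.18, limma adjusted p = 0.00731). Hgf, the ligand gene of MET, differed by 0.15 ± 0.16 and Fgf15 by -0.08 ± 0.10, and neither was called (limma adjusted p = 0.580 and 0.640). As each array was left out Hgf ranged from 0.0041 (without normal diet 1) to 0.27 (without normal diet 2), and Fgf15 from -0.14 (without high-fat 3) to -0.022 (without high-fat 2). Prl, the prolactin gene, lay close to the filter and differed by 0.06. Hgf also lay close to it in normal diet 1 (3.59, filter 3.54).

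Of 11 tested genes for proteases and inhibitors that process HGF or neurotrophin precursors 1 rose and 0 fell (list median 0.10). It was Plat, which encodes tissue plasminogen activator, at 4.08, 4.27 and 3.84 in the high-fat arrays, against 3.57, 3.43 and 3.50 in the normal diet arrays (0.56 ± 0.13, limma adjusted p = 0.0429). Only 1 normal diet array lay above the filter for Plat, and dropping any single array ended its call (adjusted p between 0.0543 and 0.140), as did fitting probe sets one by one (adjusted p = 0.0503).

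Among 17 tested related receptors and co-receptors 1 rose, 1 fell and 15 were not called (list median -0.11). Lifr, a receptor subunit gene of leukaemia inhibitory factor, read 6.28, 7.11 and 7.01 in the high-fat arrays, against 9.64, 8.46 and 8.98 in the normal diet arrays. The high-fat arrays all lay lower, by 2.23 on average (-2.23 ± 0.33, limma adjusted p = 0.0118). The other Lifr probe sets differed by -0.65 and -0.53 and the mean of the probe sets by -1.13, and Lifr was not called with probe sets that have no suffix (adjusted p = 0.0745) or with high-fat 3 dropped (adjusted p = 0.0570). Fgfrl1, an FGF receptor gene whose product lacks the kinase domain, read 8.09, 8.08 and 7.95 in the high-fat arrays, against 7.42, 7.33 and 6.75 in the normal diet arrays (0.87 ± 0.18, limma adjusted p = 0.0324). Its other probe set differed by 1.59, and the call ended with high-fat 1, 2 or 3 dropped. Fgfr1, Fgfr2 and Fgfr3 differed by -0.45, -0.28 and -0.23 without being called (limma adjusted p = 0.108, 0.515 and 0.249), and Kl, the klotho gene, by -0.20. The diets did not overlap in the main Fgfr1 probe set and in both Fgfr3 probe sets, as in 33.3% of all probe sets tested. Fgfr1 (3.40 to 4.24) and Kl (3.68 to 4.15) lay near the filter, with Fgfr1 below it in high-fat 3. As each array was left out Fgfr2 ranged from -0.56 (without normal diet 2) to -0.11 (without high-fat 1), Fgfr3 reached -0.15 (without high-fat 1), and Kl ranged from -0.34 (without normal diet 2) to -0.10 (without normal diet 3). Leprot, a gene that shares its first exons with Lepr, did not overlap between the diets in any of its 3 probe sets, which differed by 0.38 to 0.42, and was not called (limma adjusted p = 0.0939). It passed with array weights (0.46, adjusted p = 0.0498), and its difference was 0.27 after quantile normalization. Leprotl1, Ngfr and Ghr differed by 0.09, -0.08 and 0.05.

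In the rest of the PAQR family 2 of 9 tested genes rose and 0 fell (list median 0.13), where 5.87% of all genes tested were called higher. Of the 2 adiponectin receptor genes 0 were called, and counts of so few genes show no contrast. Whether the family members differ from the adiponectin receptors was not tested. Paqr7, which encodes a membrane progestin receptor, read 8.38, 8.31 and 8.37 in the high-fat arrays, against 7.47, 7.20 and 6.69 in the normal diet arrays (1.24 ± 0.19, limma adjusted p = 0.0125). Mmd2 read 7.22, 7.005 and 7.37 in the high-fat arrays, against 5.82, 6.53 and 6.09 in the normal diet arrays (1.05 ± 0.19). Neither was called without high-fat 1, 2 or 3, and Mmd2 differed by 0.66 with the mean of its probe sets. The other Mmd2 probe sets differed by 1.04 and -0.12 (limma adjusted p = 0.0309 and 0.466 where probe sets were fitted one by one).

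For JAK-STAT signalling below the leptin and prolactin receptors, 2 of 10 tested signalling genes fell and 0 rose, although 7 of the 10 differences were positive (list median 0.16). Of 13 tested feedback genes 4 fell and 0 rose, and 4 of the 13 differences were positive (list median -0.33). Over all genes tested 1.73% were called lower and 5.87% higher. Stat3, the factor that the long leptin receptor activates, read 8.62, 8.75 and 8.80 in the high-fat arrays, against 9.52, 10.01 and 9.66 in the normal diet arrays (-1.004 ± 0.14, limma adjusted p = 0.0110). Irs2, an adaptor gene, lay lower by a mean of 0.94 (-0.94 ± 0.21). Socs3, an inhibitor of leptin receptor signalling, read 5.47, 5.38 and 5.68 in the high-fat arrays, against 8.14, 6.99 and 9.13 in the normal diet arrays (-2.58 ± 0.47, limma adjusted p = 0.0210). All 3 Socs3 probe sets, which are not separate observations, separated the diets, as did 33.3% of all probe sets tested. Ptpn1, which encodes a phosphatase of JAK2, differed by -1.05 ± 0.22, and the STAT5-induced inhibitors Socs2 and Cish by -3.92 and -1.84. Socs2 differed by -1.52 with the mean of its probe sets. Stat3, Irs2, Socs3 and Ptpn1 were not called without high-fat 1, 2 or 3, nor Ptpn1 without normal diet 2. Stat5b differed by 0.43 ± 0.21 without being called (limma adjusted p = 0.224), by 0.21 without normal diet 3 and by 0.17 when its probe sets were averaged.

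Downstream of the tyrosine kinase receptors, of 17 tested adaptor genes 1 rose and 0 fell (list median 0.03): Kidins220, a scaffold gene of Trk receptors, read 8.25, 8.32 and 8.15 in the high-fat arrays, against 7.82, 7.79 and 7.80 in the normal diet arrays (0.44 ± 0.09, limma adjusted p = 0.0365). Of 19 tested genes of feedback and turnover 1 rose and 1 fell (list median 0.06). Dusp6, an ERK phosphatase gene that ERK signalling itself induces, read 8.29, 8.24 and 8.13 in the high-fat arrays, against 6.82, 6.71 and 5.90 in the normal diet arrays (1.75 ± 0.23, limma adjusted p = 0.00935). Lrig1, whose product promotes the breakdown of receptor tyrosine kinases, read 6.92, 7.002 and 7.06 in the high-fat arrays, against 7.56, 7.43 and 7.39 in the normal diet arrays (-0.47 ± 0.10). Grb14, an adaptor that inhibits receptor kinases, differed by 0.39 ± 0.15 without being called, by 0.23 without normal diet 2, by 0.26 after quantile normalization and by 0.13 when its probe sets were averaged. Of 7 tested ERK targets 1 fell and 0 rose (list median -0.19), Phlda1, at 8.60, 7.68 and 8.21 in the high-fat arrays, against 11.12, 10.56 and 9.88 in the normal diet arrays (-2.35 ± 0.34). Kidins220 and Lrig1 lost their calls in all but 1 of the fits that left out an array. Kidins220 also missed the threshold with cyclic loess (adjusted p = 0.0924), with quantile normalization (adjusted p = 0.120) and under a trended robust variance model (adjusted p = 0.0515). Lrig1 differed by -0.08 with probe sets that have no suffix. Another Lrig1 probe set, which has a suffix, differed by -0.90 and separated the diets. It was called where probe sets were fitted one by one (limma adjusted p = 0.0146). Dusp6 and Phlda1 were not called without high-fat 2 or 3.

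Below the adiponectin receptors 2 of 13 tested genes rose and 0 fell (list median 0.14). Appl1, an adaptor that binds both receptors, read 5.39, 5.42 and 5.18 in the high-fat arrays, against 4.92, 4.66 and 4.82 in the normal diet arrays (0.53 ± 0.12, limma adjusted p = 0.0393). Prkag2, a regulatory subunit gene of AMP-activated kinase, read 5.79, 5.73 and 5.65 in the high-fat arrays, against 5.005, 5.24 and 4.70 in the normal diet arrays (0.74 ± 0.15, limma adjusted p = 0.0279). With the mean of the probe sets Appl1 and Prkag2 differed by 0.22 and 0.35 and were not called (adjusted p = 0.138 and 0.0622). For both genes that mean takes in probe sets that lay below the filter on all arrays. Where probe sets were fitted one by one, another Prkag2 probe set differed by 0.67 and was called (limma adjusted p = 0.0207). Another Appl1 probe set differed by 0.18 and was not (limma adjusted p = 0.433). Neither gene was called without high-fat 1, 2 or 3, nor Appl1 without normal diet 2 and Prkag2 without normal diet 1.

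**Figure D5:**
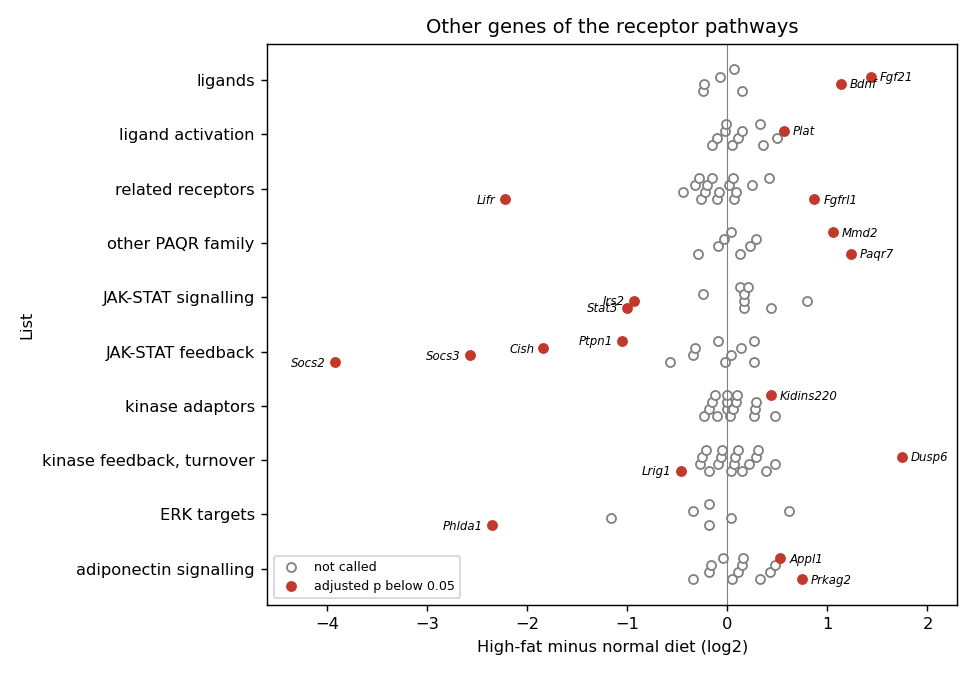
High-fat minus normal diet difference on the log2 scale (horizontal axis) of the tested genes of each of the 10 lists (vertical axis, with points spread vertically to be seen). Filled red points with names are the 19 called genes, 10 higher and 9 lower, and open points are genes not called.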

How the data were processed

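The authors deposited RMA values on a log2 scale for every probe set. Per the submitters' processing notes, the software was Affymetrix Expression Console 1.0. Per the labels' protocols, TRIzol RNA was labelled with biotin from 10 µg. Scanner files were not used here. Of 45101 rows, 64 control probe sets were left out, and 34945 of the rest had 1 gene symbol in the platform annotation. For each gene the probe set of highest mean level was kept.

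limma 3.58.1 in R 4.3.3 (lmFit, eBayes, two-sided) fitted diet over 14071 genes, or over 23408 probe sets one by one, with Benjamini-Hochberg adjustment over all and calls at an adjusted p below 0.05. No separate animals beyond pools are labelled, so p-values measure the spread between arrays. Precision is limited by the small number of arrays. The fit was tested on simulated data in which each gene had the same SD in both diets. That does not test how the calls hold in these arrays.

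The receptors and lists were chosen with earlier results of these data known. Named genes were the receptors, up to 4 called genes of each list with the smallest p, landmark genes whatever their result and the 5 nearest profiles. Of the landmarks Ntf3 was not analysed here, and Lep, Adipoq and Mst1r lay below the filter. Summaries used Python 3.11.15 and pandas 2.3.3.

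High-fat and normal diet arrays share replicate numbers, but same-numbered arrays did not deviate together (r = -0.012, 0.036 and 0.10), and the labels give no pairing. Alternatives were other level filters, variance models, scalings, probe set choices, each array dropped in turn and a replicate block.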

Additional observations from a re-analysis of the deposited data

How the results depend on the processing

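In the 17 alternatives, Ntrk2 remained higher, at 0.40 with the mean of the probe sets, 1.14 after quantile normalization, 1.17 after cyclic loess and 1.23 to 1.33 with an array left out, and the other 6 receptor genes were called in none (Lepr could not be tested with probe sets that have no suffix). Uncalled differences that changed sign were those of Met (-0.14 after quantile normalization, -0.10 after cyclic loess, -0.078 on averaging the probe sets, and -0.18 to 0.34 with an array left out), Fgfr4 (0.041 after median centring and -0.096 to 0.050), Adipor2 (-0.054, -0.10 and -0.10 after quantile normalization, cyclic loess and array weights, and -0.15 to 0.17), Ghr (-0.056, -0.079 and -0.057 with array weights, cyclic loess and the mean of the probe sets, and -0.21 to 0.24), Leprotl1 (-0.029 after quantile normalization and -0.020 to 0.20), Prl (-0.059 to 0.16) and Ngfr (-0.26 to 0.020). With an array left out, 169 to 1245 genes and 3 to 20 of the pathway genes were called, the fewest where a high-fat array was dropped (169 to 272 genes, against 949 to 1245 where a normal diet array was dropped). The cause was not tested. With the replicate block, 768 genes and 17 pathway genes were called, with Plat, Kidins220, Lrig1 and Appl1 no longer among them, and the calls of the other named genes did not change. Probe sets with levels near the filter, such as 1435196_at of Ntrk2 in normal diet 1 and 3, limit the size that can be read. All alternatives reuse arrays whose Ntrk2 difference partly guided the choice of the receptors. The Ntrk2 values given for them are therefore a description and no test of its rise.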
